A study of Schizosaccharomyces pombe with 12 samples.

Results

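The genes described here encode subunits and assembly factors of the mitochondrial respiratory chain and of ATP synthase in fission yeast, Schizosaccharomyces pombe, and are carried on the nuclear chromosomes. They were chosen by a rule on gene symbols, set with earlier results of these data known. The rule takes every symbol made of cox, qcr, atp, cyt or cyc and digits, together with sdh1, sdh3, nde1, nde2 and ndi1. Of these, ndi1 matched no listed symbol, and mitochondrial and non-coding identifiers were left out. This gave 51 of the 7015 listed features, and all 51 had enough counts to be tested. By their known roles 13 are ATP synthase subunits and 5 are ATP synthase assembly factors. Another 8 are complex IV subunits, 11 belong to complex III or cytochrome c, including the lyases that attach heme to cytochromes c and c1, and 4 are dehydrogenases that feed electrons to coenzyme Q. The remaining 10 act in complex IV assembly or bear its names. Among these, RefSeq annotates cox24 as a mitochondrial ribosomal protein, and cox1101 and cox1102 as tandem proteins that join rsm22 to cox11. The product of qcr1 is annotated as a subunit of the mitochondrial processing peptidase.

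The cells were wild type without selection markers, grown to exponential phase in YES, a rich yeast extract medium with glucose. The control group stayed in YES made with H2O, and the others were kept in YES made with 100% D2O, water whose hydrogen is deuterium, for 5 h or for 24 h. Each of the 3 groups had 4 libraries of total RNA, which the design describes as independent samples. No H2O culture of matching age was analysed here, so exposure to D2O cannot be told apart from the transfer or from time in culture. RNA came from whole cultures, so less transcript per cell and fewer cells that carry it cannot be told apart.

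Fission yeast ferments glucose but still depends on its mitochondria. It has no proton-pumping complex I. Electrons enter through single-subunit NADH dehydrogenases and through succinate dehydrogenase, pass by coenzyme Q to the bc1 complex (complex III), then by cytochrome c to cytochrome c oxidase (complex IV), and the proton gradient drives ATP synthase. Several subunits carry iron in heme or iron-sulfur clusters, and complex IV also carries copper. In this yeast Php4 is known as the subunit that joins the CCAAT-binding complex when iron is scarce and represses genes of iron-using proteins.

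Each library held 26775612 to 27166349 counts, and the members had between 151 and 38896 counts per library. Levels are given as normalised RPKM, which is the read count per kilobase of the deposited feature length, scaled to library size with TMM factors. The factors scale between libraries, and a comparison between genes rests on the deposited lengths. Changes are log2 fold changes from the quasi-likelihood F test of edgeR, called at a Benjamini-Hochberg adjusted p under 0.05 over the 6683 features tested. One 24 h library, replicate 2, held 2.84% of its counts in rRNA features against 0.113% to 0.172% in the other libraries of that group. Without it, 31 members were called higher and 7 lower at 24 h against control, the same counts as with it.

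In H2O the members spanned a wide range of levels. The highest was atp2, the catalytic beta subunit of ATP synthase, at 661 ± 8.27 normalised RPKM (SD, n = 4), followed by cyc1, cytochrome c, at 534 ± 36.8. The lowest was cox19, which RefSeq annotates as a copper chaperone, at 8.37 ± 1.21. The median member stood at 85.7 normalised RPKM, against 37.8 for the 5089 protein-coding features tested. By role median, structural subunits stood above assembly factors, at 98.4 for complex IV subunits, 154 for complex III with cytochrome c and 96.7 for ATP synthase subunits. The medians were 19.1 for complex IV assembly and 25.4 for ATP synthase assembly. Single genes overlapped, with the subunit atp18 at 18.1 and the assembly factor atp25 at 54.8. Subunits of the same complex were not at equal levels, and within ATP synthase they ran from 18.1 ± 2.68 for atp18 to the value of atp2. The alpha subunit atp1, which pairs with the beta subunit in equal numbers in the enzyme, was at 165 ± 6.49, and the ratio of atp2 to atp1 was 4.01 ± 0.163 in H2O. RPKM divides by the deposited length, which is 4799 bases for atp1 and 1906 for atp2. Summed over all 51 members, the counts made up 0.871% ± 0.0192 of the protein-coding counts in H2O, 0.876% ± 0.0176 at 5 h and 1.08% ± 0.0245 at 24 h. The TMM factors, 0.879 to 0.944 in H2O and 1.01 to 1.07 in D2O, were not applied to these shares. They are therefore not on the scale of the log2 fold changes, and a comparison of groups by them can differ from one on that scale.

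After 5 h in D2O the members split. Transcripts of succinate dehydrogenase, cytochrome c, cytochrome c1 and the copper chaperone cox17 fell, by up to 1.78 on the log2 scale, while most ATP synthase subunits rose by a smaller amount. In all, 21 members (41.2%) rose and 12 (23.5%) fell, where 39.1% of all features tested were called higher and 37.3% lower. The share of members called in either direction was 64.7%, below the background of 76.4%. Falls of at least 2-fold were called for sdh1, cyc1 and sdh3, 3 of 51, where the background was 3.82%, and no member rose at least 2-fold, where the background was 8.47%. The median member changed by 0.03, next to 0.01 for all features tested. With scaling by library size alone, 30 members were called higher and 8 lower, and the shares of all features were 53.7% and 23.3%. That scaling moved the median of all features to 0.21 at 5 h and 0.20 at 24 h, so changes are given relative to the TMM scale.

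After 24 h more members stood above control than at 5 h. Of the 51 members 31 (60.8%) were higher than control and 7 (13.7%) lower, where 41.8% of all features tested were called higher and 39.4% lower. The share called in either direction was 74.5%, with a background of 81.2%. The median member change was 0.26, against 0.01 for all features. The rises were small. No member was called higher by at least 2-fold, where 12.1% of all features were, and the only member called lower by as much was nde2, where 9.01% of all features were. The members called at both times split into 19 higher at both, 4 lower at both (nde2, atp25, atp23 and cox24) and 4 that went from lower to higher (cyc1, sdh3, nde1 and atp19). A further 7 were called at neither time. The shares of all features with these joint patterns were not counted, so the split is a description only.

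**Figure D1:**
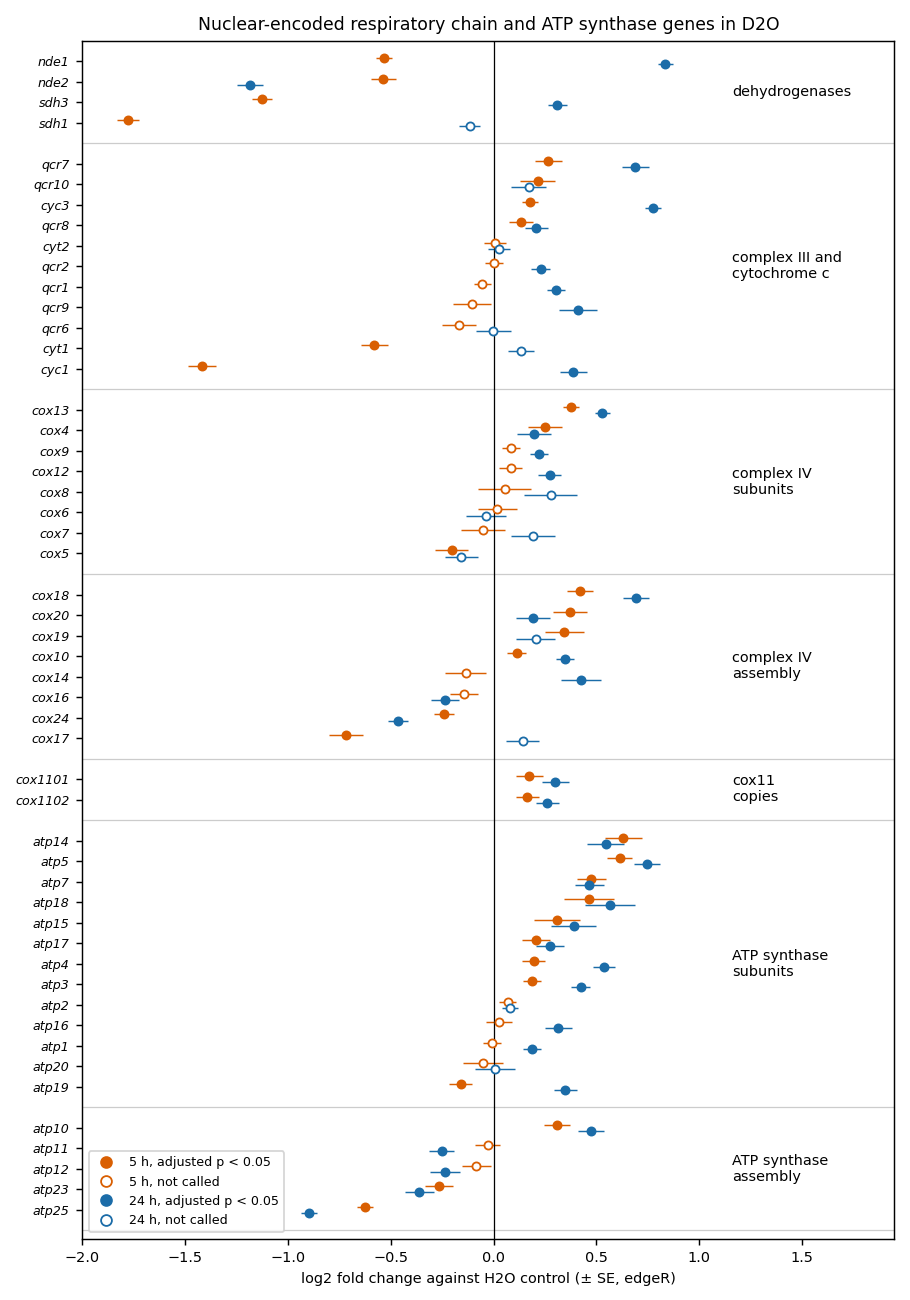
Log2 fold change against the H2O control (x axis, ± SE from edgeR) for each of the 51 genes, grouped by role, at 5 h (orange) and 24 h (blue). Filled points passed an adjusted p under 0.05. The 5 h points of sdh1, cyc1 and sdh3 lie farthest to the left, at -1.78, -1.42 and -1.13, and their 24 h points lie between -0.12 and 0.39.

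All 4 dehydrogenase genes fell at 5 h, where 37.3% of all features tested were lower. At 24 h 2 were higher than control and 1 lower, where 41.8% and 39.4% of all features were. Sdh1, the flavoprotein subunit of succinate dehydrogenase, was at 295, 266, 294 and 276 normalised RPKM in the 4 H2O libraries. At 5 h the values were 80.6, 78.6, 83.6 and 87.2, and at 24 h 270.1, 249, 258 and 267. Every 5 h library lay below every library of the other groups, while the H2O and 24 h ranges overlapped. The log2 fold change was -1.78 at 5 h (SE 0.053, edgeR adjusted p = 7.47e-13), and 1.66 from 5 h to 24 h (SE 0.053, adjusted p = 3.29e-12). Against control the 24 h value was -0.12 (edgeR adjusted p = 0.0521), not past the threshold, and 7 of 20 alternatives, among them DESeq2, called it lower.

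Sdh3, a membrane anchor subunit of the same enzyme that helps to bind its heme, followed. Its levels were 172, 151, 165 and 165 in H2O, 75.2, 71.9, 75.1 and 76.5 at 5 h, and 217, 202, 201 and 190.2 at 24 h. The 3 groups did not overlap, with 5 h lowest and 24 h highest. Sdh3 fell by 1.13 at 5 h (SE 0.048, edgeR adjusted p = 3.73e-11) and at 24 h stood 0.31 above control (SE 0.047, adjusted p = 2.41e-05). The per-length ratio of sdh1 to sdh3 was 1.73 ± 0.051 in H2O, 1.10 ± 0.029 at 5 h and 1.29 ± 0.077 at 24 h (SD, n = 4), a difference in ratio that is given as a description.

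The NADH dehydrogenase genes nde1 and nde2 parted at 24 h. For nde1 the libraries gave 45.0, 44.4, 46.2 and 44.6 normalised RPKM in H2O, 31.2, 30.0, 31.2 and 32.2 at 5 h, and 78.9, 79.0, 78.5 and 85.3 at 24 h. The groups did not overlap. Its log2 fold change was -0.53 at 5 h (SE 0.037, edgeR adjusted p = 8.37e-09) and 0.84 at 24 h (SE 0.037, adjusted p = 2.76e-11), the largest rise of any member at that time. For nde2 the values were 370.2, 310.4, 336 and 329 in H2O, 238, 226, 224 and 239 at 5 h, and 159.8, 138, 152 and 141 at 24 h. This gene fell stepwise, again without overlap, by 0.54 at 5 h (SE 0.061, edgeR adjusted p = 1.60e-06) and by 1.19 at 24 h (SE 0.062, adjusted p = 1.64e-10). The level of nde2 over that of nde1 was 6.99 to 8.23 in the H2O libraries, 7.19 to 7.65 at 5 h and 1.66 to 2.03 at 24 h. The ratio was picked after its values were seen and is a description.

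Cytochrome c and cytochrome c1, the heme proteins on either side of the step from complex III to complex IV, dipped at 5 h. The cyc1 libraries stood at 555, 492, 515 and 573 normalised RPKM in H2O, at 210.0, 190.3, 214 and 186 at 5 h, and at 700.4, 664, 760.4 and 669 at 24 h. No 2 of these groups overlapped. The log2 fold change of cyc1 was -1.42 at 5 h (SE 0.068, edgeR adjusted p = 1.11e-10), 0.39 at 24 h (SE 0.066, adjusted p = 7.38e-05) and 1.80 between the D2O groups (SE 0.068, adjusted p = 1.97e-11), the largest rise of any member from 5 h to 24 h. For cyt1, which encodes cytochrome c1, the values were 224, 219, 234 and 212 in H2O, 151, 131, 147 and 166 at 5 h, and 249, 233, 237 and 256 at 24 h. It fell by 0.58 at 5 h (SE 0.065, edgeR adjusted p = 1.23e-06) and at 24 h was 0.13 from control (adjusted p = 0.0700), with overlapping groups, and 6 alternatives called it higher.

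The heme lyases had no fall at 5 h. Cyc3, which attaches heme to cytochrome c, was at 41.3, 39.6, 38.1 and 39.2 in H2O, 46.0, 46.5, 45.0 and 41.5 at 5 h, and 67.6, 69.3, 67.2 and 67.1 at 24 h. It rose by 0.18 at 5 h (SE 0.039, edgeR adjusted p = 0.000778) and by 0.78 at 24 h (SE 0.039, adjusted p = 8.96e-11). Cyt2, annotated as the cytochrome c1 heme lyase, had log2 fold changes of 0.01 and 0.03, neither past the threshold, with mean levels of 92.8, 93.1 and 94.5 in the 3 groups.

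The structural subunits of complex III that carry no heme had 3 rises and no falls among 7 genes at 5 h, near the 39.1% of all features tested that were higher, and 5 rises and no falls at 24 h, where 41.8% were higher. Qcr7 had 164, 135, 148 and 153 normalised RPKM in H2O, 186, 180.2, 177 and 178 at 5 h, and 249.9, 216, 264 and 237 at 24 h. It rose without overlap between any groups, by 0.27 at 5 h (SE 0.067, edgeR adjusted p = 0.00222) and 0.69 at 24 h (SE 0.067, adjusted p = 1.94e-07). The core proteins qcr1 and qcr2 had values of -0.05 and 0.00 at 5 h, neither called, and were higher at 24 h by 0.30 and 0.23. With scaling by library size alone qcr1 was called higher at 5 h (0.15). Of the small subunits, qcr8 was higher at both times (0.13 and 0.21), qcr9 at 24 h (0.41) and qcr10 at 5 h (0.21). At 5 h qcr9 had -0.10, not called, and qcr6 passed at neither time, though library-size scaling called it higher at 24 h (0.19). The call of qcr8 at 5 h was lost in 9 of the 20 alternatives.

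**Figure D2:**
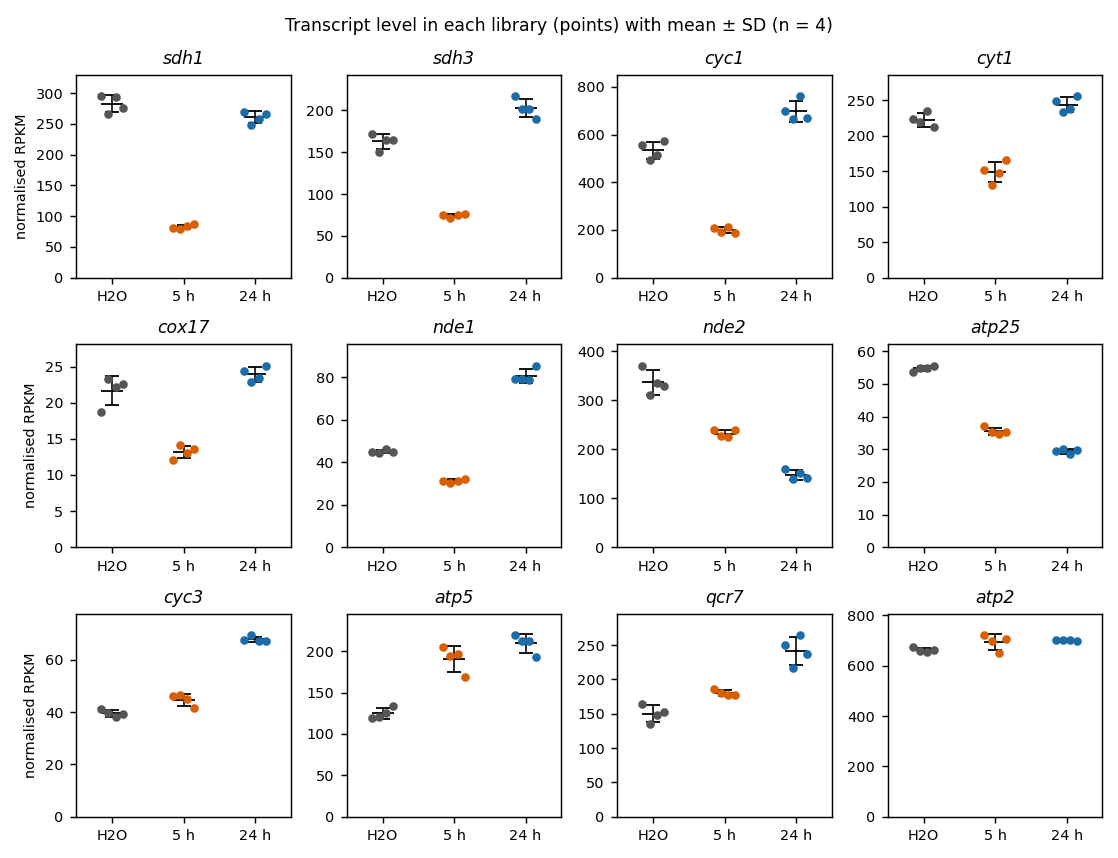
Normalised RPKM (y axis, linear and starting at 0) of 12 members in each of the 4 libraries per group (points), with mean and SD (bars). The 5 h points of sdh1, sdh3, cyc1, cyt1, cox17 and nde1 lie below both other groups, nde2 and atp25 step down, cyc3 and qcr7 step up, and atp2 stays between 651 and 720.3.

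Of 8 complex IV subunits 3 were called at 5 h, 2 higher and 1 lower, and 4 at 24 h, all higher. Of all features tested 76.4% and 81.2% were called, and the 4 of 8 higher at 24 h are near the 41.8% of all features. At neither time did 3 of them (cox6, cox7 and cox8) pass the test. Cox13 (subunit VIa) was the clearest, with 101, 114, 114 and 111 normalised RPKM in H2O, 144, 143, 143 and 141 at 5 h, and 159.6, 164, 155 and 156 at 24 h. These groups did not overlap, and the log2 fold changes were 0.38 (SE 0.038, edgeR adjusted p = 3.72e-07) and 0.53 (SE 0.038, adjusted p = 5.24e-09). Cox4 rose by 0.25 and 0.20 with overlapping groups, and its 24 h call was lost in 8 alternatives. Cox12 and cox9 were higher at 24 h, by 0.27 and 0.22. Cox5, the most abundant, had 209.8, 195, 237 and 184 in H2O, 171, 176, 189.9 and 181 at 5 h, and 200.3, 190.2, 192 and 158 at 24 h. It fell by 0.20 at 5 h (SE 0.081, edgeR adjusted p = 0.0334), with overlapping groups and with the call lost in 6 alternatives. The lowest, cox7, was at 47.8, 46.9, 38.1 and 35.0 in H2O, 44.3, 40.3, 39.6 and 37.7 at 5 h, and 43.8, 48.0, 48.1 and 51.7 at 24 h. Its groups overlapped in every comparison, and it rests on 160 to 268 counts.

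Complex IV assembly factors went both ways. Cox17, the chaperone that carries copper to the enzyme, was at 18.7, 23.3, 22.1 and 22.6 in H2O, 12.1, 14.2, 13.0 and 13.5 at 5 h, and 24.4, 22.8, 23.4 and 25.1 at 24 h. All 5 h libraries lay below the others. It fell by 0.72 at 5 h (SE 0.084, edgeR adjusted p = 1.97e-06), rose by 0.86 from 5 h to 24 h (SE 0.082, adjusted p = 4.73e-07), and at 24 h was 0.14 from control (adjusted p = 0.112). These levels rest on 191 to 404 counts. Cox18, which inserts a mitochondrially made subunit into the inner membrane in budding yeast, rose from 10.9, 11.8, 11.1 and 12.3 to 14.6, 16.3, 16.3 and 14.5 at 5 h and 18.0, 18.5, 18.6 and 19.6 at 24 h. The changes were 0.42 (SE 0.063, edgeR adjusted p = 2.72e-05) and 0.69 (SE 0.063, adjusted p = 8.26e-08), with no overlap.

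Among the other assembly genes, cox10, the farnesyltransferase that starts heme A synthesis, rose by 0.11 and 0.35. Cox14 was higher at 24 h (0.43) and cox16 lower (-0.24). Cox20 rose by 0.37 and 0.19, though its 24 h call was lost in 10 alternatives, and cox19 rose by 0.35 at 5 h (SE 0.096, edgeR adjusted p = 0.00439), from 6.63, 9.34, 9.02 and 8.49 to 10.2, 10.2, 11.1 and 11.0. The ribosomal protein gene cox24 fell by 0.24 at 5 h and 0.47 at 24 h, from 56.8, 55.5, 58.7 and 58.6 in H2O to 41.3, 43.4, 40.9 and 40.6 at 24 h (SE 0.048, edgeR adjusted p = 3.42e-07). The rsm22-cox11 copies gave near-equal values, 0.17 and 0.16 at 5 h and 0.30 and 0.26 at 24 h. They are near-identical genes, and how the counting divided reads between them is not given in the sources used here, so they may share reads.

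Most ATP synthase subunits rose. At 5 h 8 of 13 rose and 1 fell, and at 24 h 11 rose and none fell, where 39.1% and 41.8% of all features tested were called higher. Their median change was 0.19 at 5 h and 0.39 at 24 h. They held 0.303% ± 0.00905 of protein-coding counts in H2O, 0.378% ± 0.0112 at 5 h and 0.407% ± 0.00897 at 24 h (SD, n = 4). These shares are of counts without TMM factors, so they are not on the scale of the median changes and do not measure their size. Neither atp2 nor atp20 passed at either time. The atp2 libraries gave 672, 659, 652 and 663 normalised RPKM in H2O, 720.3, 699.8, 651 and 705 at 5 h, and 700.1, 701, 701 and 697 at 24 h. Its log2 fold changes were 0.07 and 0.08 (SE 0.04 each, edgeR adjusted p = 0.128 and 0.0722), and those of atp20 were -0.05 and 0.01.

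Atp5, of the stalk that ties the catalytic head to the membrane sector, had the largest rise of this role at 24 h. Its libraries gave 119.6, 121, 125 and 134 normalised RPKM in H2O, 205, 194, 197 and 168 at 5 h, and 219, 212, 213 and 193 at 24 h. All D2O libraries lay above all controls. The log2 fold change was 0.61 at 5 h (SE 0.062, edgeR adjusted p = 3.93e-07) and 0.75 at 24 h (SE 0.062, adjusted p = 2.98e-08). Atp14, a further stalk subunit, stood at 50.2, 52.6, 46.1 and 54.3 in H2O, 79.4, 88.0, 83.4 and 64.2 at 5 h, and 69.7, 83.7, 72.9 and 70.5 at 24 h. It rose by 0.63 at 5 h (SE 0.089, edgeR adjusted p = 1.34e-05), the largest rise of any member at that time, and by 0.55 at 24 h (SE 0.089, adjusted p = 4.58e-05).

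Atp7 was at 79.3, 83.3, 88.7 and 71.5 in H2O, 116, 112, 121 and 100.2 at 5 h, and 103, 122, 108 and 113 at 24 h, a change of 0.47 at each time (SE 0.071, edgeR adjusted p = 2.52e-05 and 2.46e-05). Atp18, the least abundant, had 14.7, 18.8, 17.6 and 21.2 in H2O, 25.8, 28.1, 26.2 and 19.9 at 5 h, and 24.9, 30.4, 25.0 and 27.1 at 24 h. Its rises were 0.47 (SE 0.12, edgeR adjusted p = 0.00292), with overlapping groups, and 0.57 (SE 0.12, adjusted p = 0.000541). The 5 h replicate 4 was the lowest of its group for atp5, atp7, atp14, atp15, atp17 and atp18. It held the lowest 5 h value for 22 of the 51 members and the highest for 18.

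The rotor stalk subunit atp3 and the stator subunit atp4 rose in steps, by 0.19 and 0.42 for atp3 and by 0.19 and 0.54 for atp4. Atp15 and atp17 rose by 0.31 and 0.21 at 5 h, with overlapping groups, and by 0.39 and 0.27 at 24 h. The alpha subunit atp1 (0.19) and the rotor stalk subunit atp16 (0.31) were higher at 24 h and had -0.01 and 0.03 at 5 h, not called. Library-size scaling called atp1 higher at 5 h (0.19). Atp19, a small subunit of the membrane sector, was the only one of this role called lower at 5 h. Its levels were 91.8, 88.2, 75.9 and 84.9 in H2O, 72.6, 76.2, 78.2 and 78.3 at 5 h, and 104, 111, 110.0 and 109 at 24 h. It fell by 0.16 at 5 h (SE 0.056, edgeR adjusted p = 0.0194), a call with overlapping groups that became 0.04 and was not called under library-size scaling, and rose by 0.35 at 24 h (SE 0.056, adjusted p = 3.71e-05).

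Of the 5 ATP synthase assembly factors, 2 were lower and 1 higher at 5 h, where 37.3% of all features tested were lower and 39.1% higher. At 24 h 4 were lower and 1 higher, where the shares of all features were 39.4% and 41.8%. Atp25, needed to make the rotor ring in budding yeast, was at 53.7, 54.9, 54.9 and 55.5 in H2O, 37.1, 35.2, 34.7 and 35.2 at 5 h, and 29.3, 30.0, 28.4 and 29.7 at 24 h. The groups stepped down without overlap, by 0.62 (SE 0.038, edgeR adjusted p = 2.06e-09) and 0.90 (SE 0.039, adjusted p = 1.91e-11). Atp23, a peptidase, was at 26.7, 26.4, 24.2 and 24.1 in H2O, 21.2, 20.0, 21.4 and 21.8 at 5 h, and 21.4, 21.0, 19.7 and 17.0 at 24 h, with both D2O groups below all controls. It fell by 0.27 and 0.36, and the F1 chaperone atp12 fell by 0.24 at 24 h. Atp11, a further F1 chaperone, was at 44.7, 45.2, 49.5 and 46.2 in H2O, 44.3, 49.7, 48.3 and 39.7 at 5 h, and 39.7, 38.6, 40.3 and 37.2 at 24 h, where it fell by 0.25, without overlap with H2O. At 5 h atp11 had a value of -0.03 that was not called, and under library-size scaling it was called higher (0.17). Atp10, the lowest of this role in H2O at 12.6, 12.8, 13.1 and 12.9, rose to 16.0, 16.7, 16.7 and 14.3 at 5 h and 18.4, 19.6, 16.3 and 17.2 at 24 h, by 0.31 and 0.48 (SE 0.064 each, edgeR adjusted p = 0.000527 and 6.53e-06).

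**Figure D3:**
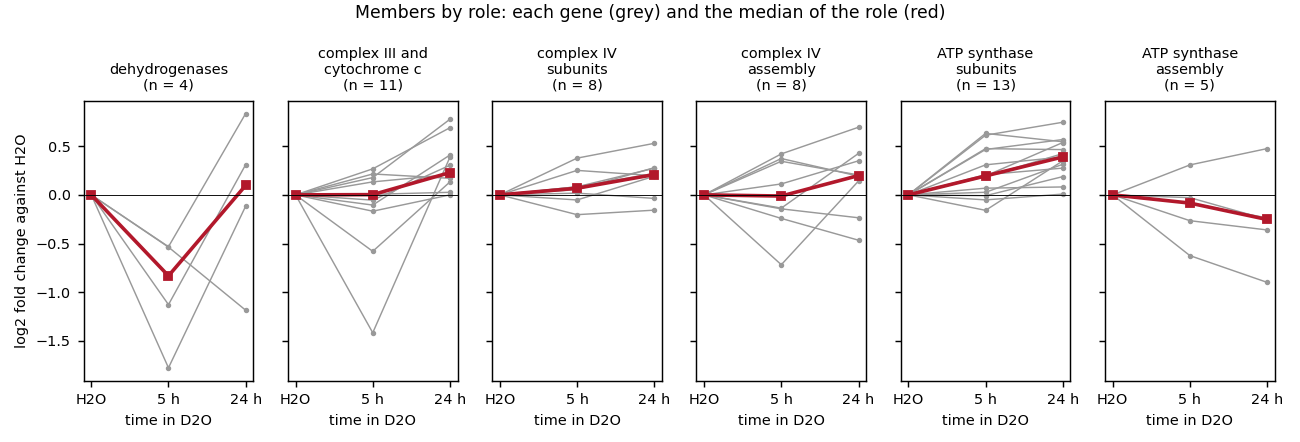
Log2 fold change against H2O (y axis) at 5 h and 24 h for each member (grey) and the median of its role (red); H2O is 0 by construction and the cox11 copies are left out. The median of the 4 dehydrogenases is -0.83 at 5 h and 0.10 at 24 h, that of the 13 ATP synthase subunits 0.19 and 0.39, and that of the 5 ATP synthase assembly factors -0.08 and -0.25.

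Between 5 h and 24 h, 23 members rose (45.1%) and 4 fell (7.84%), where 33.6% of all features tested were called higher and 34.6% lower, 68.3% in either direction. The comparison shares its 5 h and 24 h libraries with the others and is given for its own values. At least 2-fold rises were called for cyc1, sdh1, sdh3 and nde1, 4 of 51, where the background was 4.32%. No fall reached 2-fold (background 2.05%). Among complex III genes and cytochrome c 7 of 11 rose and none fell, and their median was 0.36. The 4 falls were nde2 (-0.65), atp25 (-0.27), atp11 (-0.22) and cox24 (-0.22). Without replicate 4 of the 5 h group the number of falls was 7.

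Some of these genes overlap a neighbour. By their RefSeq gene spans, 29 of the 51 overlap another listed feature, and for 11 at least 50% of the gene is covered. The sources used here do not say whether counting used strand, so reads of such pairs cannot be told apart. Atp25 overlaps dbp10, a helicase gene of ribosome assembly, over 55.4% of its length, and dbp10 changed by -0.75 and -1.01 at 5 h and 24 h. Atp7 overlaps the non-coding RNA prl25 (0.46 and 0.44), atp18 its antisense RNA (0.57 and 0.58), and atp10 the gene gos1 (0.32 and 0.51), each with nearly the values of the member. Cox14 overlaps a non-coding RNA over 77.8% of its length (-0.13 and 0.42). The antisense RNA of cox1101 covers 73.0% of it (0.21 and 0.34), and that of qcr10 covers 100% (0.19 and 0.22). These values too are near those of the member. For others the partner differed, as with cox8 and mvd1 (-0.41 and -0.43), qcr9 and mcm3 (-0.14 and -0.09), and atp12 and SPAC9.11 (0.17 and 0.04). Atp1 overlaps SPAC14C4.15c (-0.29 and -0.36) and abp1 (0.07 and 0.41). Of the genes with the largest falls at 5 h, sdh1 and cox17 overlap no listed feature, cyc1 overlaps one over 0.8% of its length and sdh3 over 1.5%. Cyc3 overlaps a non-coding RNA over 1.5% of its length, and that RNA changed by -1.35 and 2.06. Without the 11 members, 16 of the remaining 40 rose and 11 fell at 5 h. At 24 h 24 were above control and 5 below. Of all features tested 39.1% were called higher and 37.3% lower at 5 h, and 41.8% and 39.4% at 24 h.

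Other genes of the same complexes, outside the symbols chosen, were read for comparison. Sdh2, the iron-sulfur subunit of succinate dehydrogenase, was at 131 ± 10.3 normalised RPKM in H2O, 36.1 ± 1.80 at 5 h and 231 ± 7.64 at 24 h (SD, n = 4). It fell by 1.87 at 5 h (SE 0.058, edgeR adjusted p = 1.09e-12) and was 0.81 above control at 24 h (SE 0.056, adjusted p = 3.38e-09). The anchor subunit sdh4 changed by -1.14 and 0.77, and rip1, the Rieske iron-sulfur protein of complex III, by -0.41 and 0.42, all called. All 4 succinate dehydrogenase subunits fell at 5 h. Inh1, the inhibitor that blocks ATP synthase from running in reverse, rose from 62.9 ± 9.53 to 155 ± 14.6 and 170.1 ± 14.4, by 1.31 and 1.44 (SE 0.095 each, edgeR adjusted p = 1.23e-08 and 2.39e-09). Tim11, listed with the membrane sector, fell by 0.24 at 5 h and had -0.11 at 24 h, not called.

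Of the 7 subunit genes on mitochondrial DNA, 2 were higher and 2 lower at 5 h, and 1 was higher and 4 lower at 24 h. Of all features tested 39.1% were higher and 37.3% lower at 5 h, and 41.8% and 39.4% at 24 h, and the same shares apply to the gene lists that follow. One of the 5 h rises was that of atp8 (2.37, SE 0.78, edgeR adjusted p = 0.0130), whose libraries overlapped with the controls and averaged 88.0 ± 68.5 normalised RPKM (SD, n = 4). Cox1 rose by 0.31 and 0.43, while cox2 fell by 0.25 and 0.99. The level of cox2 was 2323 ± 243 in H2O, 1948 ± 103 at 5 h and 1170.2 ± 32.5 at 24 h. Cox3 was lower at 24 h by 0.79 (edgeR adjusted p = 0.000121). The atp6 libraries averaged 529 ± 216 at 5 h, with replicate 4 at 218 and the others at 561 to 703. At 24 h atp6 was called lower (-0.77, edgeR adjusted p = 0.0185).

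Of 16 genes of the TCA cycle and pyruvate dehydrogenase, 3 rose and 10 fell at 5 h, while 9 rose and 7 fell at 24 h. The 7 falls make 43.8% of the list, near the 39.4% of all features. Aconitase aco1, an iron-sulfur enzyme, went from 307 ± 15.0 to 137 ± 9.14 and 553 ± 33.1, log2 fold changes of -1.16 and 0.85. Citrate synthase cit1 changed by -0.81 and 0.62. At 24 h malate dehydrogenase mdh1 (1.79) and isocitrate dehydrogenase idh1 (1.53) had the largest rises. The pyruvate dehydrogenase genes pda1, pdb1, lat1 and pdx1 fell at both times, and lat1 (-0.90) and pdx1 (-0.70) fell most at 24 h.

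For coenzyme Q synthesis 7 of 12 genes (58.3%) rose at each time, against 39.1% and 41.8% of all features tested, with 2 lower at 5 h and 1 at 24 h. The methyltransferase gene coq3 (0.80) and dps1 (0.41) led at 24 h, and the only fall was in ppt1 (-0.19). At 5 h 12 of the 23 other assembly factors rose and 3 fell. By 24 h 10 stood above control (43.5%) and 7 below (30.4%), near the 41.8% and 39.4% of all features. Coa3 (1.20) and fmc1 (1.04) rose most at 24 h, while oxa102 (-1.01) and pet117 (-0.41) fell most. Of 20 genes of mitochondrial protein import, 12 fell at 5 h (60.0%) and 15 at 24 h (75.0%), against 37.3% and 39.4% of all features, and 1 rose each time. Its largest falls at 24 h were in tim22 (-1.16) and tom20 (-1.03), and pam17 was the gene that rose (0.31). Of 4 other electron donors, gut2 rose at 24 h (0.72), and ura3 (-0.85), dld2 (-0.79) and cir2 (-0.45) fell. At 5 h cir2 had the largest change of the list (-1.59). The porin gene SPAC1635.01 rose by 0.85 at 24 h and the ADP/ATP carrier gene anc1 fell by 0.19.

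**Figure D4:**
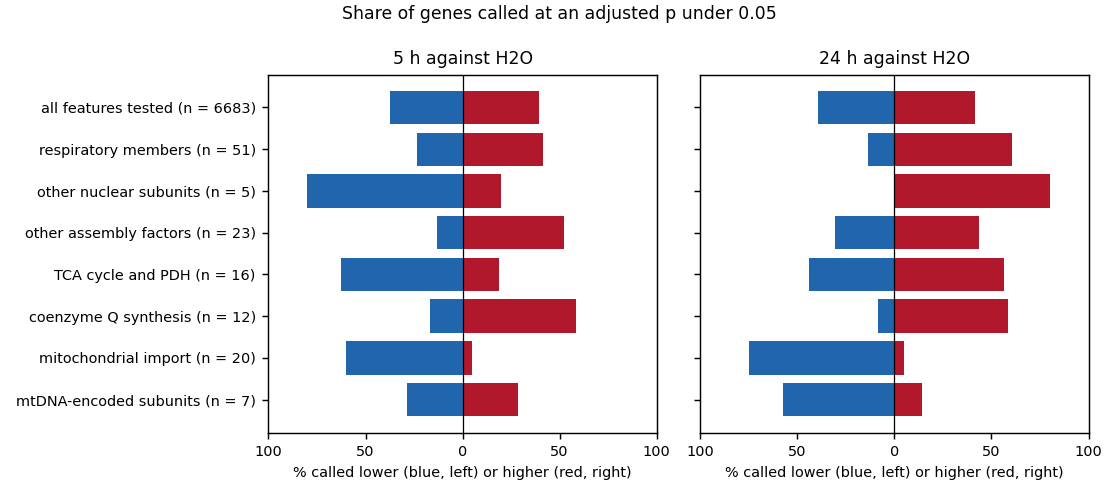
Share of genes called higher (red, right) or lower (blue, left) at an adjusted p under 0.05, as a percentage of the genes tested in each list, beside all 6683 features tested. Of all features 37.3% were lower at 5 h and 39.4% at 24 h, and of the 51 members 23.5% and 13.7%.

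Regulators of respiratory and iron-using genes were read as transcripts. Php4 was at 32.0 ± 1.13 normalised RPKM in H2O, 65.5 ± 1.23 at 5 h and 24.4 ± 0.890 at 24 h (SD, n = 4), and its groups did not overlap. It rose by 1.03 at 5 h (SE 0.037, edgeR adjusted p = 4.53e-12) and fell by 0.39 below control at 24 h (SE 0.038, adjusted p = 1.82e-07). The CCAAT-binding subunit php2 rose by 1.21 and 1.65 and php3 by 0.44 and 0.67, while php5 fell by 0.27 and 0.40. Fep1, a repressor of iron uptake genes, fell by 0.49 at 5 h and had -0.08 at 24 h, not called. Grx4, a glutaredoxin that binds Php4, fell by 1.51 at 24 h and by 0.13 at 5 h, where library-size scaling gave 0.07, not called. Rsv1, a zinc finger factor, rose by 2.15 at 24 h and tup11, a corepressor, fell by 0.56. Of the 12 listed regulators 6 were higher and 4 lower at each time, a called share of 83.3% beside 76.4% of all features tested at 5 h and 81.2% at 24 h. Their part in the changes of the members was not tested.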

How the data were processed

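RNA of 12 wild-type fission yeast libraries was sequenced, and the authors deposited 1 table per library. Per the file headers, the columns are feature length, read count and RPKM, over 7015 features. The deposited RPKM was recomputed from the deposited counts with a largest relative difference of 4.96e-06, so only the count was tested. BWA 0.7.12 is named in the submitters' processing notes. The counting program, genome build, annotation release and strandedness are not given in the sources used here, so no coordinates or sequences are given.

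Groups and replicate numbers came from sample titles. RefSeq ASM294v3 supplied names, products and overlaps, and 6845 features, all 51 members included, matched. A model with group as its only term was fitted to all 12 libraries with edgeR 4.0.16 (limma 3.58.1, R 4.3.3). It used TMM scaling (factors 0.879 to 0.944 in H2O, 1.01 to 1.07 in D2O) and filterByExpr with a minimum count of 10, which left 6683 features. SE is the absolute log2 fold change over the square root of F. The test was checked on simulated counts of 6602 features, where 50 each were changed by 1, -1, 0.5 and -0.5 on the log2 scale. The test called 100%, 100%, 92% and 86% of them, and 0.156% of the unchanged features. Far fewer features changed there than were called in these data, and rises balanced falls, so the simulation cannot check the scaling used here. Counting precision is limited by total counts of 26775612 to 27166349.

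For each comparison the text names the 5 largest rises and 5 largest falls among members called, members called in opposite directions, and the extremes of level per role. From each other list it names the 2 largest rises and falls at 24 h, and further genes (sdh4, rip1, tim11, php3, php4, php5, fep1, cit1, aco1, pda1, pdb1, cir2, atp6 and atp8) after their values were seen. The members and lists were chosen with earlier results of these data known. Alternatives were 2 other scalings, 2 other filters, protein-coding features only, DESeq2 1.42.0, a replicate block, only the groups compared, and leaving out each library. Leaving out members that overlap another feature was added after seeing the data.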

Additional observations from a re-analysis of the deposited data

Results flagged for a closer look

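Among 153 sets of 4 libraries (51 members in 3 groups), 4 had a library far from the other 3 by Dixon's criterion, where chance gives about 1 in 20. Replicate 4 of the 24 h group was high for nde1, at 85.3 normalised RPKM against 78.5 to 79.0, and for atp16, at 123 against 106 to 108. Replicate 3 of the 24 h group was low for atp3, at 180.4 against 191 to 193. Replicate 4 of the 5 h group was low for cox13, at 140.8 against 143.3 to 143.7.

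In the direct edgeR comparison of the 24 h with the 5 h group, 27 of the 51 members (52.9%) were called, below the 68.3% of all features tested. Time in D2O and age of the culture cannot be told apart in it. For 4 members the calls against control had opposite signs, and the share of all features that did so was not counted. The log2 difference between 24 h and 5 h was 1.80 for cyc1, 1.44 for sdh3, 1.37 for nde1 and 0.51 for atp19.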

How the results depend on the processing

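Over 3060 combinations of a member, a comparison and an alternative, 2836 kept sign and side of the threshold, 84 gained and 67 lost a call with the same sign, and 73 changed sign. Of these 73, 68 were called in neither fit and 5 in one of them. With library-size scaling the median member change was 0.22 at 5 h and 0.45 at 24 h against control. At 24 h 40 members were called higher and 4 lower, where 52.7% of all features tested were higher and 29% lower. Sign changes that involved a call all came with that scaling, which shifts all features alike. At 5 h it gave 0.19 for atp1, 0.0393 for atp19, 0.17 for atp11, 0.15 for qcr1, 0.0573 for ppt1 and 0.0670 for grx4, and at 24 h 0.19 for qcr6. The cause was not tested.

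Leaving out 1 library in turn, the number of members called higher was 15 to 21 at 5 h, 29 to 33 at 24 h and 23 to 27 between the times, and lower 11 to 13, 7 to 8 and 4 to 7. With the replicate number as a block, 21 were higher and 14 lower at 5 h, 33 and 9 at 24 h, and 25 and 5 between the times. Correlations of same-numbered deviations ran from -0.18 to 0.58, with 4 of 12 over 0.1, so the numbers were not taken as pairs.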
